A study of Homo sapiens with 5 samples.

Results

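The genes described here were those whose transcripts were, on average, longer in RNA pulled down with hnRNPK than in the RNA of the same cells. They were selected on the measured lengths themselves. A gene was a member if it had at least 500 expected counts in the parental input and in both hnRNPK RIP libraries and if its mean transcript length was at least 1.5 times that of the parental input in both repeats. Of 56632 genes in the tables, 2688 passed the count minimum and 122 were members. The rule's own share of the genes tested, 4.54%, therefore describes the choice and is not a result about the members. In both repeats, 8 of the 2688 genes were shorter by the same factor. A similar imbalance was seen between the inputs, as given below.

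The libraries came from MCF10A, an established line of non-tumorigenic human breast epithelial cells, and no group was treated. Parental MCF10A cells gave 1 input library and 2 repeats of RNA immunoprecipitation (RIP) with an antibody to hnRNPK. MCF10A cells that express FLAG-CBFB gave 1 input library and 1 RIP with the FLAG antibody. To find proteins that bind CBFB, the study used stable FLAG-CBFB lines made from CBFB-knockout MCF10A cells. The sample titles do not say whether the FLAG-CBFB cells here had that background. RIP recovers the RNA that a protein carries with it out of a cell lysate, and the input is the lysate's RNA before that step. No mock immunoprecipitation was analysed here, so RNA held by the beads or lost in the procedure cannot be told apart from RNA bound by hnRNPK or CBFB. The labels do not say whether the repeats came from separate cultures.

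A human gene usually makes several transcripts, which differ in their exons, in introns that stay in, or in the place where the RNA is cleaved and polyadenylated. Cleavage at a distal instead of a proximal polyadenylation site leaves the protein unchanged and lengthens the 3′UTR, the stretch after the stop codon where many regulatory proteins and microRNAs bind. hnRNPK is a nuclear and cytoplasmic RNA-binding protein whose KH domains prefer C-rich sequence. CBFB is the partner of the RUNX transcription factors and does not itself bind DNA, and the study asked whether it associates with mRNA through hnRNPK.

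The length in the tables is the mean length of a gene's annotated transcripts, weighted by the estimated number of molecules of each. It is a property of the read assignment and not of a measured molecule. In that mean a short transcript weighs much more than its reads do, because few reads on a short model stand for many molecules. A gene with a single annotated transcript cannot change its length, and the members had between 2 and 37 listed transcripts with a median of 8.

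The 3′ ends of a few members are shown first, because they show what some of the long and short models are. The length itself does not tell which end, exon or intron sets the models apart. Each run below is the last 30 bases of an annotated transcript, read from the GENCODE 29 transcript sequences on GRCh38, and the capitals mark a polyadenylation hexamer, AATAAA or ATTAAA, which was searched on the transcript's own strand only. A match is a match of letters and not a mapped cleavage site.
NUCKS1, 6496 nt coding model, chr1:205712819-205712848, minus strand: tAATAAAagataatgtttatactcacagaa
NUDT21, 4436 nt coding model, chr16:56429133-56429162, minus strand: tcatttcAATAAAaaatatttgaaagagaa
GSK3B, 7711 nt coding model, chr3:119821323-119821352, minus strand: tgctgcttcAATAAAaacaaatttatattc
GSK3B, 1636 nt coding model, chr3:119826686-119826715, minus strand: tttggaaagaatATTAAAaagagaaaaaaa
TOMM20, 3387 nt coding model, chr1:235109336-235109365, minus strand: tgaatATTAAAgggcttggagaaaactttg
C6orf132, 6210 nt coding model, chr6:42101118-42101147, minus strand: tttccataaagcttttttttttaaggccat
C6orf132, 894 nt coding model, chr6:42126377-42126406, minus strand: aaaaaaaaacaAATAAAatactgaaataca

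The short coding model of GSK3B ends 5363 genomic bases before the long one and carries a hexamer of its own. The short model of C6orf132 also carries one and ends 25259 bases before the long model, which has none in this window. Of the 121 members with a transcript in GENCODE 29, 82 had a hexamer in the last 30 bases of their longest model, which is 67.8% against 65.9% of the 2666 tested genes with such a model. At the end of the shortest model it was 8.26% of the members and 13.5% of the tested genes. Long models thus ended at a hexamer about as often in members as elsewhere, and most of the shortest models in either set did not end at one.

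The longest models of most members end in a long annotated 3′UTR. Among the 108 members whose longest model is coding, the 3′UTR of that model had a median of 3978 nt and took 75% of its length. The comparison group was the 1014 other tested genes whose longest model was long enough to reach 1.5 times the parental length. In the 710 of them with a coding longest model, the 3′UTR had a median of 2172 nt and took 53.5%. In 86 members at least 500 nt of the longest model belonged to no other matched transcript of the gene, and in 67 of these 86 over 90% of those bases lay in the 3′UTR. Among the comparison genes the same held for 246 of 442. Over 90% of the bases found only in the longest model thus lay in the 3′UTR in 77.9% of such members against 55.7% of such comparison genes. The median share of those bases in the 3′UTR was 98.9% in the members and 93.1% in the comparison genes. Only gene models enter these counts, which do not say that this stretch is the length gained in the RIPs. The rule favours genes with room to lengthen, and no test was made.

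The members also held fewer C tracts than the comparison genes. The motif CCCC, counted on the transcript strand with overlaps, occurred 3.12 times per kb in the longest model of the median member and 5.86 times per kb in the comparison genes. GC content was 41.7% in the members and 50% in the comparison genes. The 38 genes that were longer than both inputs, described below, lay between these values with 4.84 CCCC per kb and 45.7% GC.

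The lengths of the members stood in steps across the libraries. The median length was 2069 nt in the parental input, 2853 nt in the FLAG-CBFB cell input, 3513 nt in the FLAG-CBFB RIP, and 3963 and 3991 nt in the hnRNPK RIP repeats. Over the 2566 other tested genes the medians stayed between 2492 and 2642 nt in all libraries. The parental input was the shortest of the 5 libraries in 115 of the 122 members, which the rule favours, and in 35.1% of the 2572 tested genes with several transcripts. In 72 members the 5 libraries stood in the order parental input, FLAG-CBFB cell input, FLAG-CBFB RIP, both hnRNPK RIPs. The rule itself sets both hnRNPK RIPs above the parental input, so part of that order is built in. It was not counted in the other tested genes, and the count is a description only.

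The repeats of the hnRNPK RIP gave nearly the same lengths. The median difference between them was 0.07 on the log2 scale in the members, 0.05 in the 2688 tested genes and 0.08 in the comparison genes. The smallest difference the rule accepts from the parental input is 0.58, and each member had to pass it in both repeats. The first repeat was the longer in 58 of 122 members. The widest gap was in PTP4A1, a phosphatase gene, with 2454 nt in one repeat and 4082 nt in the other. Both inputs and the FLAG-CBFB RIP are 1 library each, so their own spread is unknown.

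**Figure D1:**
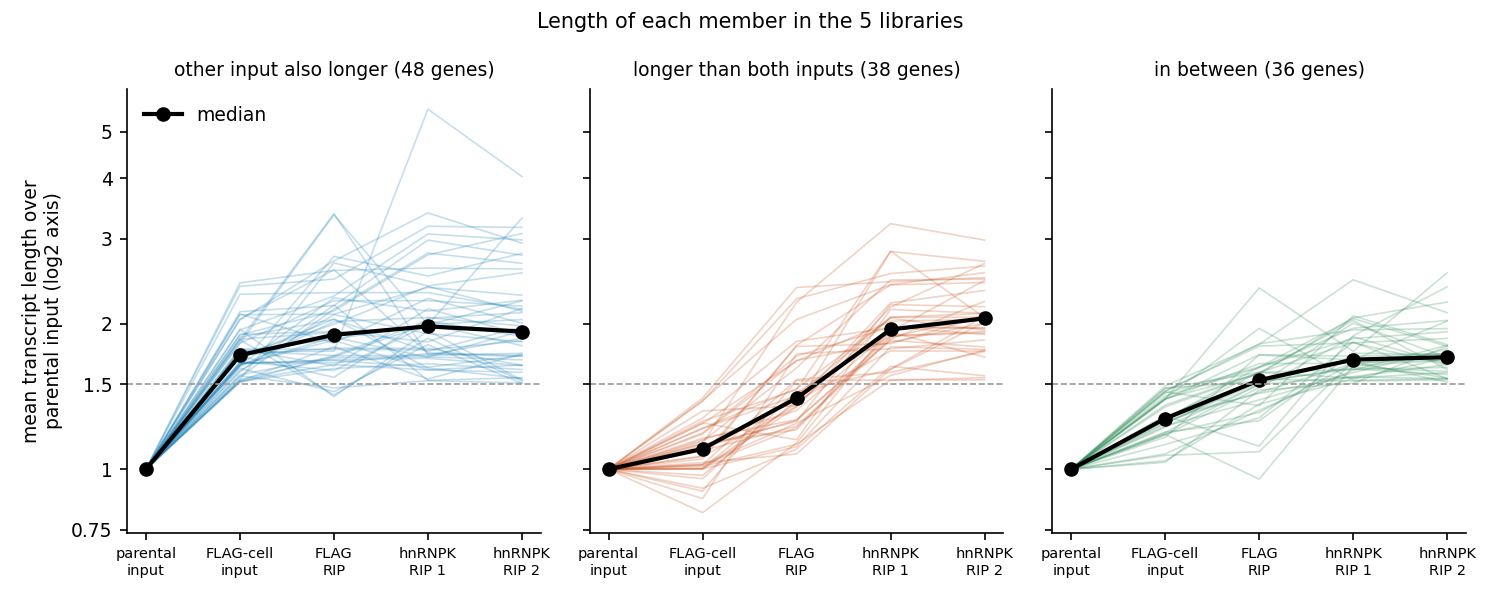
Mean transcript length of each member divided by its length in the parental input (log2 axis), in the 5 libraries, with 1 thin line a gene and black points for the median. The medians in the FLAG-CBFB cell input are 1.72, 1.1 and 1.27 in the 3 panels, while both hnRNPK RIPs lie at or above the dashed 1.5 line for every gene by the rule.

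The rule rests on a single parental input, so the members were split by the other input. In 48 members the FLAG-CBFB cell input was itself at least 1.5 times as long as the parental input. In 38 members it was not, and both hnRNPK RIPs were also at least 1.5 times as long as the FLAG-CBFB cell input. The remaining 36 lay in between. All 122 members had over 500 counts in the FLAG-CBFB cell input, so none was left unsplit. Among the 2677 tested genes with enough counts in that input, 99, or 3.7%, were longer there by 1.5 times, and 48 of the 99 were members. Of all 2688 tested genes, 1 was shorter there by the same factor. That comparison shares the parental library with the rule, and nothing is read from its overlap. In the first set the parental library was short against the other input by the split. The FLAG-CBFB RIP was also at least 1.5 times as long as the parental input in 44 of the 48, beside 128 of the 2688 tested genes. That ratio has the parental library in common with the rule and the split, so it is a description only. In the second set the hnRNPK RIPs were long against either input, also by the split.

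**Figure D2:**
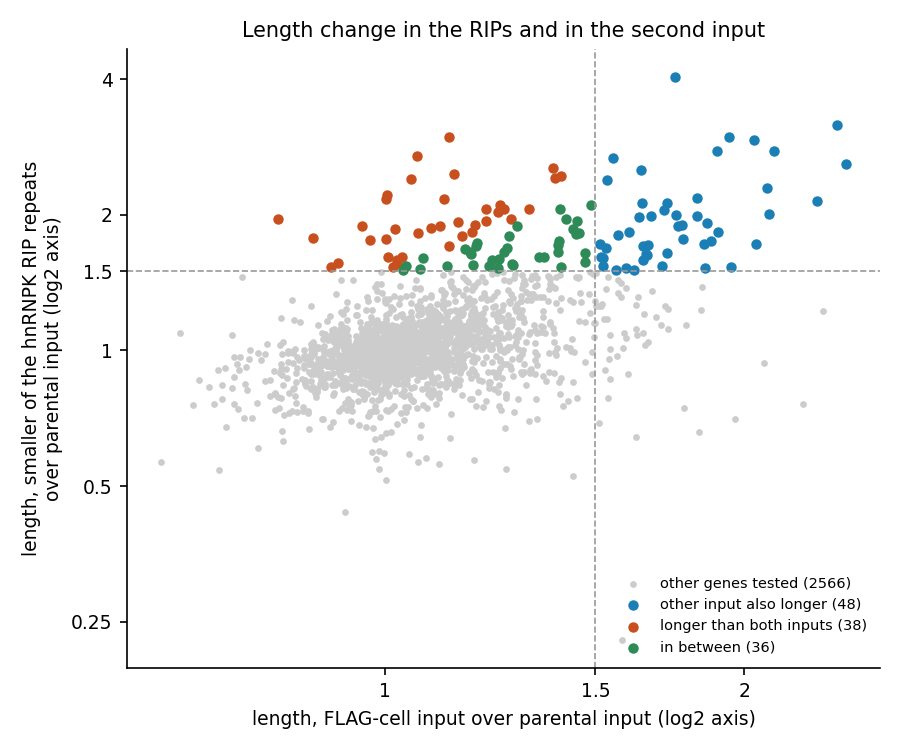
Length in the smaller of the hnRNPK RIP repeats over the parental input against length in the FLAG-CBFB cell input over the parental input (both log2 axes), 1 point for each of 2688 genes, with 2677 of them above the count minimum in both inputs. The 48 blue members lie to the right of the vertical 1.5 line, and the 38 orange and 36 green members lie to its left.

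Among the genes that were longer than both inputs, ATF7, a transcription factor of the ATF/CREB family, measured 2375 and 3284 nt in the parental and FLAG-CBFB cell inputs, 5352 nt in the FLAG-CBFB RIP, and 6035 and 6255 nt in the hnRNPK RIPs. PNKD measured 1202 and 1262 nt in the inputs, 2169 nt in the FLAG-CBFB RIP, and 2893 and 2926 nt in the hnRNPK RIPs. C6orf132, an uncharacterised open reading frame, measured 2055 and 2884 nt in the inputs, 4886 nt in the FLAG-CBFB RIP, and 5023 and 5121 nt in the hnRNPK RIPs. In these 3 genes no RIP library overlapped an input library. HERC3, a HECT-type ubiquitin ligase, measured 1541 and 1637 nt in the inputs and 4351 and 4152 nt in the hnRNPK RIPs. Its FLAG-CBFB RIP, at 2080.2 nt, was 1.27 times as long as its own input but closer to the inputs than to the hnRNPK RIPs.

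ATP5IF1 encodes the inhibitor of the mitochondrial ATP synthase and is among the most expressed members, with a parental FPKM of 424. Its lengths in the inputs were 532 and 533 nt, in the FLAG-CBFB RIP 730.4 nt, and in the hnRNPK RIPs 1176 and 1248 nt. The inputs were thus almost identical here. SPA17 measured 1022 and 1168 nt in the inputs, 1657 nt in the FLAG-CBFB RIP, and 2520.0 and 2531 nt in the hnRNPK RIPs, and it had the fewest counts of any member in the parental input, 921. YIPF6, a Golgi membrane protein gene, went from 2531 and 3511 nt in the inputs to 6099 and 6462 nt in the hnRNPK RIPs, with the FLAG-CBFB RIP at 5170.3 nt.

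NEAT1, the nuclear RNA that scaffolds paraspeckles, is a member that the naming rule did not pick and was singled out after its values were seen. It is made as a short polyadenylated form and as a long form, and GENCODE 29 lists them at 3441, 3524 and 22743 nt. Its length was 3305 nt in the parental input, 4157 nt in the FLAG-CBFB cell input, 4828 nt in the FLAG-CBFB RIP, and 9345 and 6811 nt in the hnRNPK RIPs. The parental value is below the shortest GENCODE 29 model, so the authors' models differed from these. The repeats were also apart in amount, at 2256 and 8225 counts.

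Where the FLAG-CBFB cell input was also longer, the largest ratio belonged to XPNPEP3, a mitochondrial aminopeptidase. Its lengths were 685 nt in the parental input, 1198 nt in the FLAG-CBFB cell input, 1202 nt in the FLAG-CBFB RIP, and 3810 and 2764 nt in the hnRNPK RIPs. The hnRNPK RIPs therefore stood well above every other library although the class is defined by the second input. Of these 48 genes, 5 were at least 1.5 times as long as the FLAG-CBFB cell input in both hnRNPK RIPs, and they would also be members with that input as the reference.

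NUDT21 encodes the small subunit of cleavage factor Im, which itself helps to select polyadenylation sites. Its length was 1445 nt in the parental input, 2808 nt in the FLAG-CBFB cell input, 3299 nt in the FLAG-CBFB RIP, and 4436 and 4311 nt in the hnRNPK RIPs. In the first repeat the mean equalled the longest model, so nearly all its molecules were assigned to the transcript whose end is shown above. TMED10, a cargo receptor of the early secretory pathway, went from 1174 to 2393 nt between the inputs, 3169 nt in the FLAG-CBFB RIP, and 3984 and 3449.9 nt in the hnRNPK RIPs. In both genes the inputs, the FLAG-CBFB RIP and the hnRNPK RIPs stood in that order.

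In GMFB, TMEM106B and MKLN1 the FLAG-CBFB RIP was close to its own input, with ratios of 1.06, 1.04 and 1.03, while in NUDT21 and TMED10 the ratios were 1.18 and 1.32. GMFB measured 1524 nt in the parental input against 3707 nt in the FLAG-CBFB cell input, 3932 nt in the FLAG-CBFB RIP, and 3977 and 3959.7 nt in the hnRNPK RIPs. TMEM106B, a lysosomal membrane protein gene, measured 1407 nt in the parental input, 3366 and 3485 nt in the FLAG-CBFB libraries, and 4482 and 4458 nt in the hnRNPK RIPs. MKLN1, a subunit of the CTLH ubiquitin ligase, measured 3419 nt in the parental input, 7247 and 7459 nt in the FLAG-CBFB libraries, and 10195 and 9481 nt in the hnRNPK RIPs.

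The members in between included MSI2, an RNA-binding protein of the Musashi family, at 2083 and 3097 nt in the inputs, 3776 nt in the FLAG-CBFB RIP, and 5138 and 4391 nt in the hnRNPK RIPs. AK4, a mitochondrial adenylate kinase, measured 3433 and 4974 nt in the inputs, 6241 nt in the FLAG-CBFB RIP, and 6669 and 6711 nt in the hnRNPK RIPs. SKA2, a kinetochore component, measured 819 and 1148 nt in the inputs, 1291 nt in the FLAG-CBFB RIP, and 1686 and 1818 nt in the hnRNPK RIPs. In all of them the FLAG-CBFB RIP stood above its input and below both hnRNPK RIPs. SSR3 and PDXK departed from that order. SSR3, of the translocon-associated protein complex, measured 1880 nt in the FLAG-CBFB cell input and 1761 nt in the FLAG-CBFB RIP, and PDXK, the pyridoxal kinase, 2152 and 1862 nt.

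Among the members with the highest expression, RPL22, a protein of the large ribosomal subunit, had a parental FPKM of 672. Its lengths were 932 and 1110.1 nt in the inputs, 1398 nt in the FLAG-CBFB RIP, and 1871 and 1588 nt in the hnRNPK RIPs. HMGB1, a chromatin protein, measured 1112 and 1636 nt in the inputs, 1765 nt in the FLAG-CBFB RIP, and 2033 and 1829 nt in the hnRNPK RIPs. CANX, the ER chaperone calnexin, measured 2653 and 3392 nt in the inputs, 4208 nt in the FLAG-CBFB RIP, and 4097 and 4206 nt in the hnRNPK RIPs. For CANX the FLAG-CBFB RIP and the hnRNPK RIPs were thus at one level.

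Near the threshold, SYNCRIP, PLEKHG2 and C5orf24 were just inside, the smaller of their ratios being 1.506, 1.507 and 1.509. PPP6C and RBM33 were just outside, at 1.495 each. Nothing separates these genes but the threshold.

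The FLAG-CBFB RIP and its own input share no library with the rule and offer the only length comparison independent of it. It has 1 library on each side, so it is a description with no test. Of 2668 genes with at least 500 counts in both, 0.75%, or 20 genes, were at least 1.5 times as long in the FLAG-CBFB RIP, and 14 of those 20 were members. In the members the share was 14 of 122, or 11.5%, and in the comparison genes it was 3 of 1007. The comparison genes were chosen for room to reach 1.5 times the parental input, not the FLAG-CBFB cell input. Their longest model had a median of 4554 nt against 5485 nt in the members, so room to lengthen was not matched. The weaker condition of any increase held in 54.8% of the 2668 genes and in 107 of the 122 members. The median ratio was 1.17 in the members and 1 in the comparison genes.

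The 3 sets were split on the FLAG-CBFB cell input, the denominator of this ratio, so a difference between the sets is built in by the split and their values are given as description. The median ratio of the FLAG-CBFB RIP over its input was 1.35 in the 38 genes longer than both inputs, of which 37 were above 1 and 9 reached 1.5. It was 1.2 in the 36 in between, with 33 above 1 and 1 at 1.5. It was 1.07 in the 48 where the other input was also longer, with 37 above 1 and 4 at 1.5. NDE1, a dynein regulator, had the largest ratio, 1.99, from 1356 nt in the FLAG-CBFB cell input and 2704 nt in the FLAG-CBFB RIP. Its hnRNPK RIPs measured 2771 and 2890.3 nt and its parental input 1560.3 nt, so the RIP libraries formed one group and the inputs another. PTP4A1 measured 2249 and 4146 nt in that pair, a ratio of 1.84. Cells and antibody differed from those of the hnRNPK RIP, and CBFB associates with hnRNPK in the study's account, so the FLAG-CBFB RIP is not an unrelated pulldown.

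**Figure D3:**
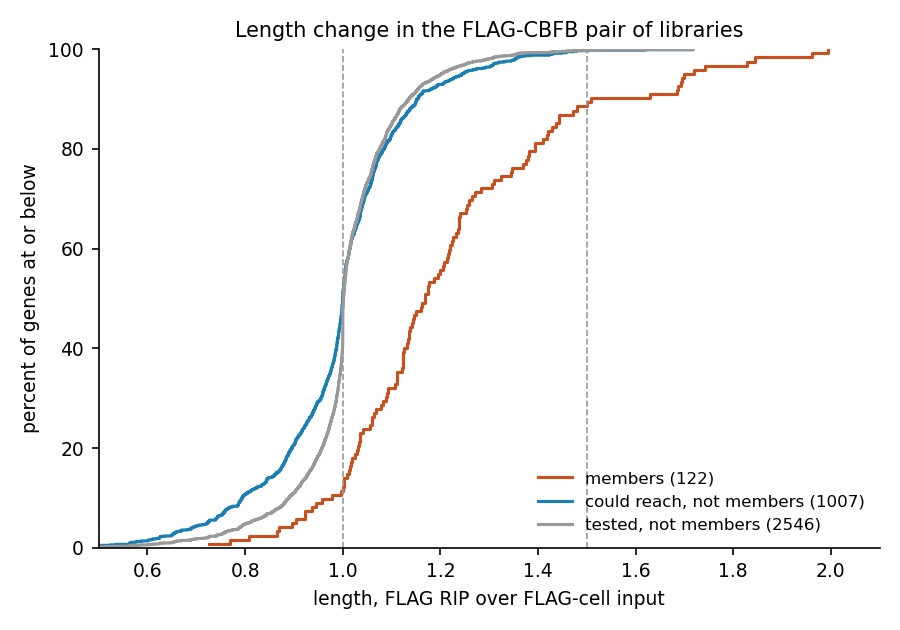
Percent of genes at or below each ratio of length in the FLAG-CBFB RIP over length in the FLAG-CBFB cell input (linear axis, drawn from 0.5). Curves show the 122 members, all 2546 other genes tested, and the 1007 of these whose longest model could reach 1.5 times the parental length. The members' curve lies to the right, with 11.5% of them at or above 1.5 against 0.298% of the comparison genes.

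With few transcripts the lengths can be turned back into shares. Where a gene lists 2 or 3 models, all of them in GENCODE 29, its mean length sets the share of molecules on the longest model, exactly for 2 models and as a lower limit for 3. NUCKS1, a chromatin-associated phosphoprotein gene, has a coding model of 6496 nt and a noncoding one of 228 nt. The longest model held 41% of its molecules in the parental input, 99.2% in the FLAG-CBFB cell input, 100% in the FLAG-CBFB RIP, with the hnRNPK RIPs at 100% and 92.1%. In reads the parental share was already 98.4%. The 2.32-fold difference in mean length between the parental input and the first hnRNPK RIP therefore rested on 1.65% of the parental reads, about 607 of 36725.

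PANK3, a pantothenate kinase gene, and TOMM20, a receptor of the outer mitochondrial membrane, also changed far more in molecules than in reads. PANK3 had at least 56.7% of molecules on its 10506 nt model in the parental input and at least 96.4% in the other libraries, while its reads were at 97.2% in the parental input. TOMM20 had at least 44% of molecules on its 3387 nt model in the parental input and at least 92.5% elsewhere, while its reads were at 92.1%. Had TOMM20 kept the parental share, the hnRNPK RIPs would have held 144 and 106 reads on the short models, and they held at most 2.03 and 3.56. In NUCKS1, PANK3 and TOMM20 the parental input stood alone and the FLAG-CBFB cell input sided with the RIPs. SUMO2, a ubiquitin-like modifier gene named after its values were seen, had at most 11.5% of molecules on its 3190 nt model in the parental input and at least 17.2% in the other libraries. There at least 49.5 to 56.1% of its reads lay on that model, while the parental length sets no lower limit above 0, so the gap in reads may be larger than in the other genes.

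In C6orf132 and CHAMP1 the shares differed along all libraries. C6orf132 had 21.8% of molecules on its 6210 nt model in the parental input, 37.4% in the FLAG-CBFB cell input, 75.1% in the FLAG-CBFB RIP, with the hnRNPK RIPs at 77.7% and 79.5%. Its read shares were 69.7%, 83.3%, 96.2%, 96.7% and 97%, so its short model held 30.3% of the parental reads. CHAMP1, a gene of chromosome alignment, had at least 45.2% of molecules on its 3975 nt model in the parental input, 69.9% in the FLAG-CBFB cell input, 85.7% in the FLAG-CBFB RIP, with the hnRNPK RIPs at 87.3% and 88.3%.

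GRWD1, a histone-binding and ribosome biogenesis factor, separated the hnRNPK RIPs from all other libraries. The lower limit on its 5571 nt model was 39.8% in the parental input, 28.9% in the FLAG-CBFB cell input, 47.6% in the FLAG-CBFB RIP, with the hnRNPK RIPs at 96.6% and 95.9%. In reads it was 83.2%, 75.5%, 87.3%, 99.5% and 99.4%. It is the member whose FLAG-CBFB cell input was shortest relative to the parental input, with a ratio of 0.813. These shares come from RSEM's assignment and carry no counting interval.

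**Figure D4:**
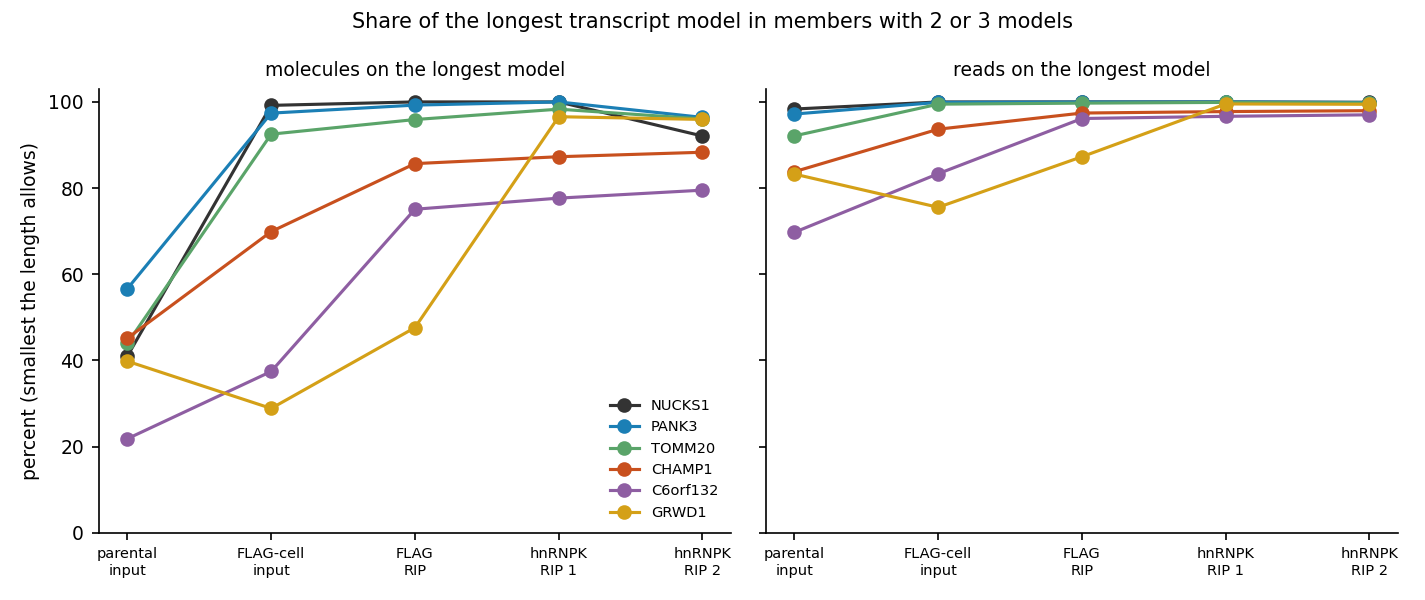
Smallest share of molecules (left) and of reads (right) on the longest transcript model that the mean length allows, in percent, in the 5 libraries, for 6 members with 2 or 3 models. NUCKS1, PANK3 and TOMM20 leave their parental molecule share of 41 to 56.7% already in the FLAG-CBFB cell input, while C6orf132 runs from 21.8 to 79.5% and GRWD1 is at 96.6 and 95.9% in the hnRNPK RIPs and at most 47.6% elsewhere.

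Enrichment, the amount of a gene's RNA in a RIP against the input, is a different measure from its length. It was taken as the log2(FPKM + 1) of a RIP minus that of its own input, centred on the mean over 11764 genes whose FPKM averaged 1 or more, and a gene was called above 2, which is 4-fold. The hnRNPK contrast is the one the rule used, so its values are a description. The median hnRNPK enrichment of the members was -0.03 and -0.12 in the repeats. Their mean over the repeats had a median of -0.11, against 0.43 in the 2688 genes that passed the count minimum, -0.07 in the comparison genes and -0.11 in all analysed genes. Of the members, 7 were called, which is 5.74% against 8.2% of all analysed genes and 22.2% of the 2688 genes that passed the count minimum. Below -2 were 11 of the 122 members, beside 6.24% of all analysed genes. So were 280 of the 2688 genes that passed the count minimum and 157 of the 1014 comparison genes.

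FPKM divides by the length, so a gene whose length rises loses FPKM for the same reads. On log2 CPM, which takes no length, the median hnRNPK enrichment of the members was 1.58, and 48 of the 122 were called. The background on that scale was 12.7% of all analysed genes and 36.8% of those passing the count minimum, against 39.3% of the members and 31.7% of the comparison genes. The medians on that scale were 1.19 in the genes passing the count minimum, 0.73 in the comparison genes and -0.49 in all analysed genes. The members thus lay below the genes that passed the count minimum on FPKM and above them on log2 CPM.

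The members with the highest hnRNPK enrichment were C6orf132 at 3.27 ± 0.29 (SD, n = 2), IDS at 3.27 ± 0.29 and CHAMP1 at 2.64 ± 0.09. ATF7 followed with 2.47 ± 0.50 and the unnamed gene ENSG00000230055 with 2.36 ± 0.36. IDS, the lysosomal iduronate sulfatase, measured 2652 and 4070.1 nt in the inputs, 7092 nt in the FLAG-CBFB RIP, and 6353 and 6761 nt in the hnRNPK RIPs. By FPKM it stood at 14 in the parental and 15.7 in the FLAG-CBFB cell input, at 20.4 after the FLAG pulldown and at 26.4 and 18.6 after the hnRNPK pulldowns, so it was both longer and higher in the RIPs. At the other end, HMGB1 stood at -3.27 ± 0.38, SNU13, a protein of the U4 snRNP and of box C/D snoRNPs, at -2.95 ± 0.28, and MBD2, a methyl-CpG-binding protein, at -2.84 ± 0.10. On log2 CPM, which takes no length, these 3 genes stood at -1.58, -1.34 and -0.99, against a median of -0.49 in all analysed genes. RNA of these genes was thus low in the RIP on FPKM and less so on log2 CPM. What was there was assigned to models longer on average than in the parental input. Against the FLAG-CBFB cell input the hnRNPK RIPs were also longer in HMGB1 and SNU13. In MBD2 they measured 2432 and 2162 nt beside 2258 nt in that input.

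For CBFB the median enrichment of the members was -0.42, against -0.19 in all analysed genes, with 1 library on each side and no test. ENSG00000230055 and C6orf132 were called, at 3.71 and 2.43, beside 4.37% of all analysed genes. Among the genes that passed the count minimum 310 of 2688 were called, and among the comparison genes 108 of 1014. On log2 CPM the median of the members was -0.09, against -0.20 in all analysed genes. It was 0.03 in the genes that passed the count minimum and -0.01 in the comparison genes. On that scale 5 members were called beside 5.44% of all analysed genes. No transcript of ENSG00000230055 is in GENCODE 29, and it is therefore given by its identifier.

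**Figure D5:**
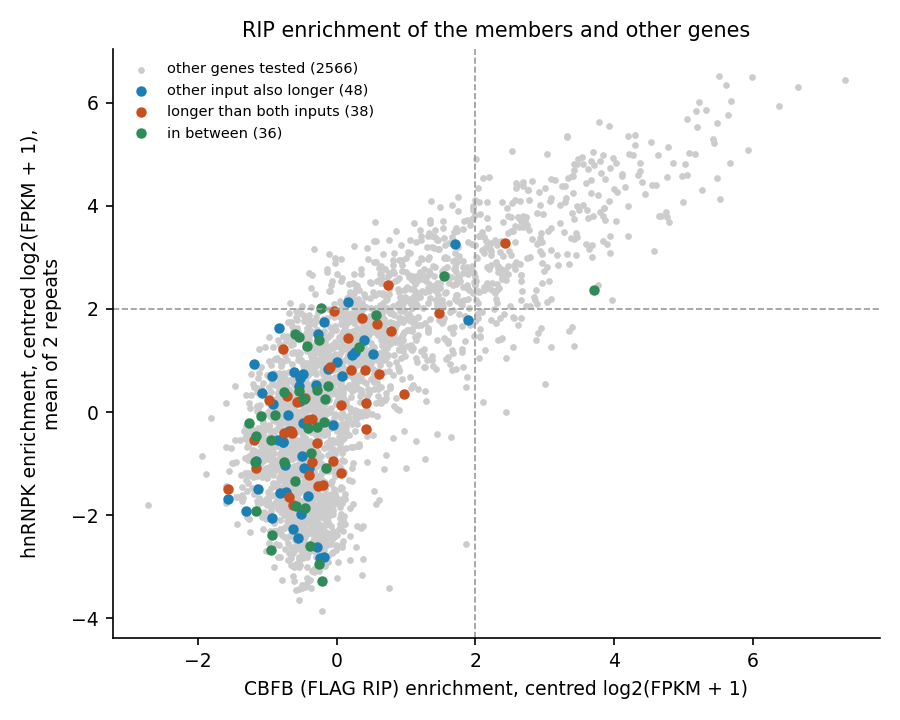
Mean hnRNPK enrichment of the 2 repeats against CBFB enrichment, both as centred log2(FPKM + 1), with 1 point a gene and dashed lines at 2. The members of all 3 sets run along the cloud of the 2566 other tested genes, with 7 members above the horizontal line.

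The gene lists chosen for this study held few members. No member was among 21 tested genes of the hnRNP and poly(C)-binding list, which was drawn by symbol. Nor was any among 8 SR proteins, 8 members of the H3K4 methyltransferase complexes, 4 nonsense-mediated decay factors or 9 keratins. The share in all tested genes was 4.54%. In that order, 15, 6, 3, 2 and 2 of them had a longest matched model that could reach 1.5 times the parental length. With so few genes, the absence of members is not read as a result about these lists. The symbols also left out SYNCRIP, a member whose protein is also called hnRNP Q. The study's panel, which it drew from transcripts it called bound, was listed together with RUNX1 and GAPDH. None of these 18 genes was a member, and 7 of them could have reached the ratio by their longest matched model. Their median length ratios were 0.991 and 0.985. Of 75 tested cytosolic ribosomal proteins, 1 was a member, RPL22. Of the CDC-like kinases none passed the count minimum.

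The translation initiation list was drawn by EIF symbols, so it also holds kinase genes such as EIF2AK2. It had 2 members of 32 tested, or 6.25%, beside the 4.54% of all tested genes. EIF2S1, the alpha subunit of eIF2, measured 1164 and 1244 nt in the inputs, 1266 nt in the FLAG-CBFB RIP, and 1947 and 1764 nt in the hnRNPK RIPs. EIF2AK2, the kinase PKR that phosphorylates that subunit, measured 4416 and 5609 nt in the inputs, 7193 nt in the FLAG-CBFB RIP, and 9054 and 7939 nt in the hnRNPK RIPs. The respiratory chain list held 2 of 16, ATP5IF1 and NDUFA10. NDUFA10, a subunit of complex I, measured 1125 and 1162 nt in the inputs, 1209.8 nt in the FLAG-CBFB RIP, and 1815 and 2333 nt in the hnRNPK RIPs. EIF2S1 and NDUFA10 were thus longer in the hnRNPK RIPs, while the FLAG-CBFB RIP stayed near the inputs.

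The libraries held 69786576 to 106855647 expected counts, with the parental input the shallowest. Mitochondrial transcripts took 4.27 and 11.2% of the inputs, 62.2% of the FLAG-CBFB RIP, with 84.5 and 86.6% for hnRNPK. The members took 1.46 to 2.24% of the other counts. The mean fragment, read as length less effective length, was 161 nt in the parental input and 165 to 172 nt in the other libraries, and its part in the lengths was not tested. The basal epithelial markers, 10 of 10, had an FPKM of 1.81 or more in both inputs, the leukocyte and endothelial markers were at 0.01 or less, and 1 of 3 fibroblast and 1 of 3 luminal markers passed 1 in both inputs, at up to 1.77 and 6.01. Exons of 23 members' longest models overlapped another gene on the same strand and those of 45 on the opposite strand, 19% and 37.2% beside 16% and 32.7% of the comparison genes. The labels and methods do not state whether strand was used in the assignment, so the lengths of these members are less certain.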

How the data were processed

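RIPseq libraries of MCF10A cells were analysed, 5 in all. Per the labels, Trizol and an RNeasy cleanup gave the RNA, and the TruSeq mRNA kit the libraries. Per the submitters' processing notes, reads were handled with Trimmomatic, STAR and RSEM on hg19, with versions and annotation release not given in the sources used here. The authors deposited, for each gene, RSEM's expected counts (estimated counts that need not be whole), FPKM, TPM (not used here), and mean transcript length and effective length. Members and gene lists were chosen with earlier results of these data known.

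Lengths were compared as plain ratios, and all results are descriptions without a test, because the rule used the hnRNPK contrast and the FLAG-CBFB arms had 1 library each. The tables hold no coordinates. Gene names, models, coordinates and sequences are from GENCODE 29 on GRCh38, which matched 1076 of the members' 1165 listed transcripts and the length of 88.9% of genes with 1 transcript within 0.5 nt. Annotation counts use matched models only. Named by ID were 120 members, through transcripts 1.

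Named genes were, per set, the 8 members with the largest smaller ratio, the 5 with the highest parental FPKM, list members (up to 3 a list), 3 on each side of the threshold, the 5 highest and 3 lowest in hnRNPK enrichment and the 3 with the largest FLAG-CBFB RIP ratio, of which some are only counted and some are not reported here. Members with 2 or 3 models, and genes whose ends are printed, were chosen after their values were seen. log2 CPM used a prior count of 2 and TMM factors (edgeR 4.0.16) or DESeq2 1.42.0 size factors. The rule, the split and the enrichment were tested on simulated data. Python 3.11.15 and R 4.3.3 were used.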

Additional observations from a re-analysis of the deposited data

Results flagged for a closer look

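A total of 6 members were longer than the parental input in both hnRNPK RIPs but shorter in the FLAG-CBFB RIP than in the FLAG-CBFB cell input by a factor of 0.9 or less. The difference between the contrasts was not tested, and the FLAG-CBFB arms had 1 library each. ZNF652, a zinc finger gene, had a ratio of 0.725 in the FLAG-CBFB pair, from 4163 to 3020.3 nt, against 1.94 and 1.53 in the hnRNPK RIPs. IPO9, a nuclear import receptor, had 0.768, from 7081 to 5440.4 nt, against 1.87 and 1.52. NUP155, a nuclear pore component, had 0.808 against 1.64 and 1.68. PDXK had 0.865 against 1.89 and 2.39, MBD2 had 0.87 against 2.26 and 2.01, and PLEKHG2 had 0.895 against 1.81 and 1.51. In ZNF652, IPO9, MBD2 and PLEKHG2 the FLAG-CBFB cell input was at least 1.5 times as long as the parental input.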

How the results depend on the processing

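The number of members followed the thresholds. It was 122 as reported, 316 with a count minimum of 100, 70 with a minimum of 1000, 287 with a length ratio of 5 to 4, 34 with a ratio of 2, and 49 with the FLAG-CBFB cell input as the reference. Of those 49, 43 were among the 122. With either hnRNPK RIP repeat left out, the count was 165 without repeat 1 and 194 without repeat 2, and fewer libraries then had to pass the minimum and the ratio. The number longer than both inputs was 38 as reported, 77 and 25 with minimums of 100 and 1000, 82 and 7 with ratios of 5 to 4 and of 2, and 54 to 59 with a repeat left out. Effective lengths (137 and 47) and the minimum in all 5 libraries (122) stayed within 1.5 times. The median ratio of the FLAG-CBFB pair lay between 1.17 and 1.18 under its alternatives.

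The median hnRNPK enrichment of the members changed sign with the scale, while that for CBFB stayed negative under every alternative run. The CBFB median of all analysed genes was negative too, at -0.19 on FPKM and -0.20 on log2 CPM. For hnRNPK, -0.11 as reported became 0.40 with a pseudocount of 0.1, -2.75 without centring, 0.0034 centred on the median, -2.14 without the filter, 0.29 with a mean FPKM of 5 or more, and 1.58 on log2 CPM with either TMM or DESeq2 factors. It lay between -0.12 and -0.034 with a repeat left out. For CBFB, -0.42 became -0.30, -1.76, -0.23, -1.44, -0.35, -0.089 and -0.088 in that order and -0.50 against the parental input. The yardstick for both was the SD between the hnRNPK repeats, 0.06. No paired analysis was possible because only hnRNPK RIP has a replicate number above 1. Depth limits the lengths in the RIPs, where at least 500 counts stand behind each member.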
